A study of Mus musculus with 43 samples.

Results

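Cym, Gkn3, Ctrb1, Pnliprp2 and Dmbt1 are 5 genes of stomach, pancreas and mucosal secretions that were followed in mouse intestinal organoids treated with TGFB1 and in crypt cells of irradiated mice. They were chosen by symbol as foregut-type genes switched on by TGFB1, and all 5 were found among the 23951 genes of the bulk RNA tables and among the 54307 gene rows of the single-cell matrices. The bulk and single-cell values with and without TGFB1 chose these genes, so their TGFB1 differences are given as a description with no test. Differences of that response between bulk conditions use the same libraries, so their p-values are a description as well. The name given to the set, ectopic gastric and pancreatic enzymes, held for part of it. Cym and Gkn3 were higher with TGFB1 in all 3 bulk conditions, Ctrb1 in the conditions collected at day 7 alone, and Pnliprp2 and Dmbt1 in none. Gkn3 and Dmbt1 encode secreted proteins that are not enzymes. Gkn3, Pnliprp2 and Dmbt1 were also found in vehicle organoids and in crypt cells of a non-irradiated mouse. The word ectopic is therefore not borne out for these genes. Ctrb1 was likewise present in vehicle organoids but barely detected in those crypt cells.

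Primary intestinal organoids of wild-type C57BL/6 mice were measured by bulk RNA-seq in 6 groups of 3 libraries. They were left without irradiation and harvested at day 7 (D7 non-IR), or irradiated on day 4 with 4 Gy and harvested at day 7 (D7 IR) or at day 11 (D11). Each condition received vehicle or TGFB1 at 2 ng/mL on day 6 for 24 h. For D11 the labels thus put the collection days after those 24 h. Single-cell RNA-seq covered organoids irradiated in the same way and harvested at day 8, after TGFB1 at 1 ng/mL for 6, 15 or 24 h or after vehicle for 24 h (called 0 h), with 1 library each. It also covered live Ki67-RFP+ cells, which carry a reporter of the proliferation gene Mki67, sorted from crypts of the upper small intestine of Mki67tm1.1Cle/J mice, with 1 library from a non-irradiated littermate and 2 libraries taken 56 h after 12 Gy to the whole body. Mouse ages were not given in the sources used here. Nothing in the labels says whether bulk replicates were separate cultures or mice, so p-values measure the spread between libraries, which may be technical. The crypts of irradiated mice passed a wider strainer than those of the control, and that step cannot be told apart from irradiation.

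The bulk libraries held FPKM (fragments scaled to transcript length and library size) that summed to 447728 to 621996 per library, and their read depth is unknown. The single-cell libraries kept 699 to 4283 cells with 12344815 to 32430950 UMIs (unique molecules), and 2 of 21 pairs of libraries shared 1 cell barcode. Scrublet marked 0.275 to 1.65% of the cells of a library as doublets, which were kept. Of 13 markers that define pancreatic acinar cells, 11 stayed under 1 FPKM in every bulk library, among them Prss2, Cpa1, Pnlip and Amy2a5. The same number stayed under 1 CPM (UMIs of a gene scaled to a fixed total per library) in the 4 single-cell organoid libraries. The exceptions were Clps and Sycn, which reached 547 and 159 FPKM in bulk and 4.75 and 4.94 CPM in single-cell organoid libraries. Of 5 markers of gastric pit cells, 4 stayed under 1 FPKM in every bulk library, and so did 5 of 8 markers of gastric glands. The others reached 40.2 FPKM for Psca of the pit, and 12.9, 4.43 and 1.23 FPKM for Pgc, Tff2 and Atp4a of the glands.

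The stomach and the pancreas arise from the foregut, next to the part of the gut tube that forms the small intestine, and each makes its own secreted proteins. Chymosin, the product of Cym, is an aspartic protease that clots milk in the stomach of newborn mammals. Gkn3 encodes a gastrokine, a small secreted protein of mucous cells of the stomach. Ctrb1 encodes chymotrypsinogen B1, the inactive form of a serine protease that acinar cells of the pancreas release into the gut. Pnliprp2 encodes pancreatic lipase-related protein 2, a lipase that splits several kinds of dietary lipid. Dmbt1 encodes a large secreted scavenger receptor that binds bacteria and is made by normal intestinal epithelium, so its presence there is not ectopic. TGFB1 is a ligand whose receptors act through Smad proteins, and in the intestine it is known to restrain proliferation and to take part in repair.

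The stretches of 250 bases before the start sites of Cym, Gkn3 and Ctrb1 are shown because these are the 3 genes whose levels were higher with TGFB1. They come from RefSeq on build GRCm38.p6, which had an entry for 4 of the 5 genes, and are written 5′ to 3′ on the gene's strand. Cym lies at chr3:107221733-107221982 (minus strand), Gkn3 at chr6:87388936-87389185 (minus strand) and Ctrb1 at chr8:111691011-111691260 (minus strand). Capitals mark every match to 5 short motifs searched on both strands, which were CAGAC (bound by Smad proteins), TGANTCA (AP-1), GGAATG (TEAD), AGATAA (bound by factors of the GATA family) and TATAAA (the TATA box).
Cym: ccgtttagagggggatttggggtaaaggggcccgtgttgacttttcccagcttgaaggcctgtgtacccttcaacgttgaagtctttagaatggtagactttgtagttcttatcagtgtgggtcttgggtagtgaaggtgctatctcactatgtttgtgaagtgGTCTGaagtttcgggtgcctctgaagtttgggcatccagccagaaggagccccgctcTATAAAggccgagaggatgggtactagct
Gkn3: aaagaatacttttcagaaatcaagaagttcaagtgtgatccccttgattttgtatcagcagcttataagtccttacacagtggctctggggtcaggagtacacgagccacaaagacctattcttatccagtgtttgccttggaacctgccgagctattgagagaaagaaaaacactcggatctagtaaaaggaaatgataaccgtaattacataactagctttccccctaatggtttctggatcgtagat
Ctrb1: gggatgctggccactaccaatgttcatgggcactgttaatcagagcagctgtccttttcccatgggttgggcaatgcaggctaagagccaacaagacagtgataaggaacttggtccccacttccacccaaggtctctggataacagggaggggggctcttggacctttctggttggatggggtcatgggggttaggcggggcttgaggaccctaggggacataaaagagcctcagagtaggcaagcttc
Matches were found in Cym alone, with GTCTG, the reverse complement of CAGAC, 86 to 82 bases before the start and TATAAA 29 to 24 bases before it. CAGAC on either strand occurred in 42.2% of 32841 promoters of the same length, TATAAA in 12.4%, GGAATG in 12.6%, AGATAA in 9.99% and TGANTCA in 6.75%. Gkn3, Ctrb1 and Pnliprp2 (chr19:58759473-58759722, plus strand) held none of these letters in their windows. The G and C content of the windows was 50.0% for Cym, 40.8% for Gkn3, 54.8% for Ctrb1 and 58.4% for Pnliprp2.

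Cym went from nearly absent to abundant with TGFB1 in every bulk condition. In D7 non-IR organoids the vehicle libraries held 0, 0.0284 and 0.0559 FPKM and the TGFB1 libraries 60.4, 39.2 and 40.0 FPKM. In D7 IR organoids the values were 0.0667, 0.475 and 0.340 FPKM with vehicle and 251, 256 and 162 FPKM with TGFB1. At D11 they were 0, 0.304 and 0.575 FPKM with vehicle and 389.5, 253 and 303 FPKM with TGFB1. No vehicle library came near a TGFB1 library, and D11 organoids with TGFB1 were the highest group. The D7 IR means, 0.294 ± 0.208 and 223 ± 53.0 FPKM (SD, n = 3), differed 759-fold, and no fold is given where a vehicle library is listed at 0. On the log2(FPKM + 1) scale, which understates the change of a gene this low in vehicle, Cym was higher by 5.50, 7.42 and 7.94 in the order of conditions above. Cym reached a mean of 1 FPKM, the minimum for a gene to be fitted, through the TGFB1 libraries alone.

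Gkn3 was higher with TGFB1 in all 3 conditions, but from a vehicle level that differed between them. The D7 non-IR libraries held 3.80, 2.82 and 1.41 FPKM with vehicle and 153, 128 and 122 FPKM with TGFB1. The D7 IR libraries held 13.4, 13.9 and 12.7 FPKM with vehicle and 69.9, 68.5 and 49.6 FPKM with TGFB1. At D11 the values were 32.1, 36.3 and 32.7 FPKM with vehicle and 99.2, 66.7 and 58.1 FPKM with TGFB1. All TGFB1 libraries lay above all vehicle libraries of their table, with mean ratios of 50.3, 4.70 and 2.22. The vehicle means were 2.68 ± 1.20, 13.3 ± 0.605 and 33.7 ± 2.30 FPKM (SD, n = 3), 4.98-fold apart between D7 non-IR and D7 IR and 2.53-fold apart between D7 IR and D11. Tables of different conditions were normalized separately, so such differences in level between conditions were not tested.

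Ctrb1 was the most abundant of the 5 genes with TGFB1 at day 7 and was low at day 11. In D7 non-IR organoids it read 2.79, 2.51 and 1.49 FPKM with vehicle and 468, 376 and 399 FPKM with TGFB1. In D7 IR organoids it read 73.1, 63.7 and 74.6 FPKM with vehicle and 2728, 2514 and 2593 FPKM with TGFB1. At D11 it read 15.5, 19.0 and 33.6 FPKM with vehicle and 11.1, 10.6 and 11.7 FPKM with TGFB1. The groups of each condition did not overlap, but the order turned, since the TGFB1 mean was 183-fold and 37.1-fold that of vehicle in the D7 conditions and 0.490-fold at D11. The vehicle level was 31.1-fold higher in D7 IR than in D7 non-IR organoids, and the TGFB1 level 235-fold higher in D7 IR than in D11 organoids. As a bulk level, Ctrb1 cannot say whether fewer cells made it or each cell made less, and this holds for the other genes too.

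Pnliprp2 was not higher with TGFB1 in any bulk condition. The D7 non-IR libraries held 113, 121 and 117 FPKM with vehicle and 81.5, 73.5 and 68.2 FPKM with TGFB1. The D7 IR libraries held 65.9, 69.2 and 69.0 FPKM with vehicle and 61.1, 66.8 and 63.8 FPKM with TGFB1. The D11 libraries held 66.6, 70.6 and 95.1 FPKM with vehicle and 10.1, 13.2 and 11.2 FPKM with TGFB1. The groups overlapped in D7 IR organoids, and TGFB1 libraries lay below vehicle libraries in the other conditions. The mean ratios of TGFB1 to vehicle were 0.636, 0.940 and 0.148, so the widest gap of this lipase gene was at D11.

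Dmbt1 was lower with TGFB1 in all 3 conditions. It read 119, 118 and 112 FPKM with vehicle and 87.1, 99.0 and 91.9 FPKM with TGFB1 in D7 non-IR organoids. In D7 IR organoids it read 584, 568 and 566 FPKM with vehicle and 241, 244 and 233 FPKM with TGFB1. At D11 it read 233, 254 and 269 FPKM with vehicle and 159, 178 and 141 FPKM with TGFB1. No groups of a condition overlapped, and the mean ratios were 0.797, 0.418 and 0.631. The vehicle level was 4.93-fold higher in D7 IR than in D7 non-IR organoids.

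Counted over the 5 genes, TGFB1 libraries lay wholly above vehicle libraries for 3 genes and wholly below for 2 in D7 non-IR organoids, where 35.3% and 36.8% of 11330 genes did so. The counts were 3 above and 1 below in D7 IR organoids, against 37.1% and 41.1% of 11258 genes, and 2 above and 3 below at D11, against 35.8% and 34.3% of 11479 genes. The choice of the genes used these contrasts, so nothing is read from the counts.

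**Figure D1:**
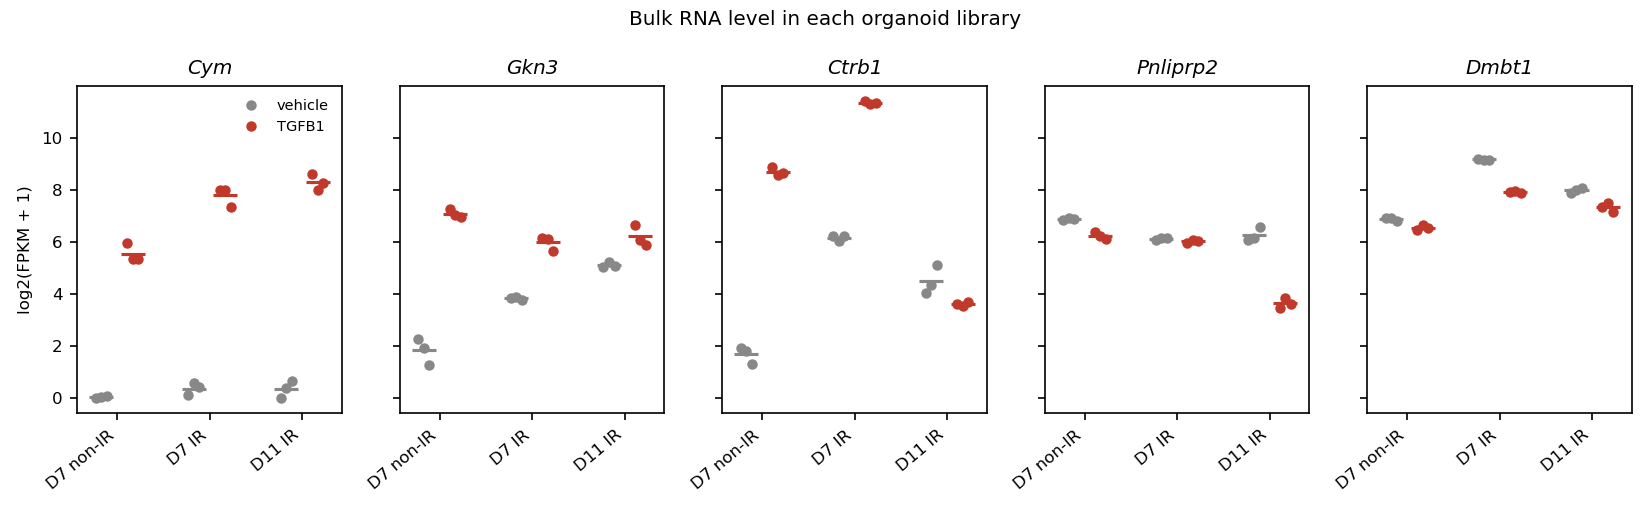
Log2(FPKM + 1) of each gene (vertical axis) in the 18 bulk libraries, by condition (horizontal axis), with vehicle in grey and TGFB1 in red, 1 point per library and a line at each mean of 3. Cym and Gkn3 lie higher with TGFB1 in all 3 conditions, Ctrb1 is higher in the D7 conditions and lower at D11, and Dmbt1 is lower in all 3.

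The size of the TGFB1 response differed between conditions for Gkn3, Ctrb1, Pnliprp2 and Dmbt1, in different directions. The difference was tested as an interaction on log2(FPKM + 1) with limma over 12 libraries and all genes that averaged 1 FPKM or more in them, two-sided with Benjamini-Hochberg adjustment. The terms use the same libraries that chose the genes, so they are no independent support for a response or for a difference between conditions. Their p-values are given as a description. Cym was fitted through its TGFB1 libraries alone, so its terms are given as values with no test. For irradiation at D7, 4 of the 4 other genes passed an adjusted p of 0.05, against 53.1% of 11411 genes tested. For day 11 against day 7 in irradiated organoids, the same 4 genes passed, against 64.5% of 11456 genes. Both shares of all genes are so high that passing sets none of these genes apart.

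Irradiation went with a smaller TGFB1 difference for Gkn3 and Ctrb1 on this scale. The irradiation terms (D7 IR minus D7 non-IR, log2 ± SE) were -3.12 ± 0.339 for Gkn3 (limma adjusted p = 6.65e-05) and -1.81 ± 0.210 for Ctrb1 (limma adjusted p = 6.71e-05), both from genes whose vehicle level was higher in D7 IR organoids. For Pnliprp2 the term was 0.56 ± 0.0775 (limma adjusted p = 3.20e-05) and for Dmbt1 it was -0.93 ± 0.0607 (limma adjusted p = 2.08e-08), so the gap between TGFB1 and vehicle was wider for Dmbt1 and narrower for Pnliprp2 in irradiated organoids. The Cym term was 1.92 with a pseudocount of 1 and 0.79 with one of 0.1, so its size depends on the pseudocount.

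Between day 7 and day 11 the genes parted further. The day term (D11 minus D7 IR, log2 ± SE) was -6.09 ± 0.299 for Ctrb1 (limma adjusted p = 4.84e-08), whose sign of change turned, and -2.55 ± 0.161 for Pnliprp2 (limma adjusted p = 2.44e-08). For Gkn3 it was -1.05 ± 0.251 (limma adjusted p = 0.00365) and for Dmbt1 0.59 ± 0.117 (limma adjusted p = 0.000556). The Cym term was 0.52, and 1.00 under quantile normalization. Cym thus read high with TGFB1 at D11 and Ctrb1 did not. The labels do not say whether the medium was replaced without TGFB1 between day 7 and day 11, so the D11 levels cannot be assigned to a time without the ligand.

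Markers of intestinal cell types moved in the same libraries, and their part in these results was not tested. The summed level of 10 enterocyte markers went from 5530 to 5843 FPKM with vehicle to 2749 to 2907 with TGFB1 in D7 non-IR organoids, from 17389 to 18380 up to 24564 to 25710 in D7 IR organoids, and from 5238 to 9216 down to 2798 to 3192 at D11. D7 IR with TGFB1 was thus the highest group for these markers as it was for Ctrb1. The summed level of 7 villus tip markers was 217 to 227 with vehicle and 599 to 647 FPKM with TGFB1 in D7 non-IR organoids, 346 to 362 and 1164 to 1259 in D7 IR organoids, and 155 to 233 and 93.9 to 104 at D11. The summed level of 9 stem cell markers was 1012 to 1101 with vehicle and 640 to 662 FPKM with TGFB1 in D7 non-IR organoids, 1028 to 1060 and 417 to 505 in D7 IR organoids, and 650 to 838 and 779 to 944 at D11. The summed level of 10 markers of dividing cells (G2M) was 732 to 743 with vehicle and 353 to 369 FPKM with TGFB1 in D7 non-IR organoids, 864 to 875 and 200.1 to 247 in D7 IR organoids, and 763 to 842 and 785 to 904 at D11. The summed level of 13 regenerative markers, such as Clu and Anxa1, was 847 to 909 FPKM with vehicle in D7 non-IR organoids. With TGFB1 it was 4802 to 5055 FPKM there. In D7 IR organoids it was 625 to 652 with vehicle and 6636 to 7234 FPKM with TGFB1. At D11 it was 577 to 706 with vehicle and 6210 to 7330 FPKM with TGFB1, so this list read high there as Cym did. The sum of 9 squamous markers also read high there, at 74.8 to 146 with vehicle and 618 to 715 FPKM with TGFB1. The sum of 11 enteroendocrine markers was highest in D7 IR with TGFB1, at 2026 to 2263 FPKM against 756 to 840 with vehicle. Reading high at D11 as Cym did, or in D7 IR as Ctrb1 did, was thus not particular to 1 list. None of these enterocyte, villus tip, stem cell, G2M or regenerative markers was at 0 throughout a group.

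Across the 18 bulk libraries the levels of Cym and Gkn3 had a Pearson correlation of 0.757 on the log2(FPKM + 1) scale, Gkn3 and Ctrb1 one of 0.627, and Cym and Ctrb1 one of 0.520. Cym and Pnliprp2 had a correlation of -0.660. These values are descriptions over 18 libraries that share 3 tables and 1 treatment. Among 11472 genes the closest to Cym was Dok2, an adaptor protein of kinase signalling, at 0.991, followed by Pvrl4 at 0.990 and A430105I19Rik at 0.988. Dok2 went from a mean of 0.216 to 6.43 FPKM in D7 non-IR, 0.559 to 16.9 in D7 IR and 0.367 to 19.3 FPKM at D11, in the order that Cym also had with TGFB1. The closest to Gkn3 were Maged1 at 0.953, 4930523C07Rik at 0.938 and Ephb3, an ephrin receptor of the crypt, at 0.937. The closest to Ctrb1 were Plec, which encodes the cytoskeletal linker plectin, at 0.975, Spsb1 at 0.965 and Ppapdc1b at 0.958. The closest to Pnliprp2 were H2-Q10 at 0.983, Slc30a10 at 0.981 and Calml4 at 0.976, and the closest to Dmbt1 were Gp1bb at 0.981, Bfsp1 at 0.978 and Acot1 at 0.972.

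Most, but not all, of the other stomach products that could be tested rose with TGFB1. Of 22 further stomach products in the tables, 10 stayed under 1 FPKM in every library. Of those that averaged 1 FPKM or more, 6 rose, 0 fell and 2 did not pass in D7 non-IR organoids, where 33.3% of all genes rose and 34.9% fell (limma, adjusted p under 0.05). In D7 IR organoids 6 rose, 0 fell and 2 did not pass, against 35.8% and 39.7% of all genes. Without vehicle replicate 2, TGFB1 replicate 2 or TGFB1 replicate 3 of that condition, or under quantile normalization, 1 fell. Without vehicle replicate 3 or TGFB1 replicate 3 of it, 5 rose. With no filter on low values 2 fell in each D7 condition, and in a fit of all 18 libraries 1 fell in D7 non-IR organoids. At D11 7 rose, 2 fell and 2 did not pass, against 32.3% and 31.6% of all genes. The median log2 change of the list was 1.61, 1.23 and 1.03 in these conditions, in that order, beside -0.02, -0.03 and 0.01 over all genes tested.

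Ctse, an aspartic protease of gastric surface cells, rose from a mean of 1.89 to 29.4 FPKM in D7 non-IR, from 3.75 to 111 in D7 IR and from 2.51 to 65.7 FPKM at D11. Anxa10, an annexin of gastric epithelium, rose from 24.8 to 160, from 20.9 to 221 and from 8.75 to 69.0 FPKM. Vsig1, a junction protein of gastric epithelium, rose from 1.29 to 6.70 FPKM in D7 non-IR. It read 0.440 and 4.54 in D7 IR and 0.284 and 13.9 FPKM at D11. In D7 IR and D11 it reached the minimum of 1 FPKM through its TGFB1 libraries alone. Those values have no valid test, though Vsig1 is counted among the risen above. Ctse therefore had its highest level in the D7 IR group and Vsig1 in the D11 group, as Ctrb1 and Cym did. Psca, a surface protein of gastric pit cells, rose in all 3 conditions, to 4.98, 15.2 and 33.7 FPKM. Ghrl, which encodes the hormone ghrelin, was level in D7 non-IR organoids (140 and 141 FPKM), rose from 84.3 to 178 FPKM in D7 IR and fell from 149 to 55.2 FPKM at D11.

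Most enzymes of the pancreatic acinar cell were not expressed, and the few measured moved in different directions. Of 29 such genes in the tables, 20 stayed under 1 FPKM in every library and 10 were listed at 0 in all of them. Of those tested, 1 rose, 5 fell and 2 did not pass in D7 non-IR organoids, 3 rose, 3 fell and 1 did not pass in D7 IR, and 2 rose, 3 fell and 2 did not pass at D11. Over all genes tested, 33.3%, 35.8% and 32.3% rose by condition, while 34.9%, 39.7% and 31.6% fell. The median log2 change of the list was -0.28, 0.06 and -0.24. The D7 non-IR count of 1 risen was 2 without TGFB1 replicate 1. It was also 2 under quantile normalization, with a replicate block or with no filter on low values. The D11 count of 2 risen was 0 without TGFB1 replicate 1 or 3. It was 1 without vehicle replicate 1, vehicle replicate 2 or TGFB1 replicate 2, under median-ratio scaling or with no filter. The D7 non-IR count of 5 fallen was 4 with a replicate block, in a fit of all 18 libraries, or without replicate 2 or 3 of either group. The D7 IR count of 3 fallen was 4 under quantile normalization or with no filter. The D11 count of 3 fallen was 4 with any TGFB1 replicate left out and 5 with no filter.

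Sycn, which encodes a protein of zymogen granules, fell in all 3 conditions, from a mean of 31.8 to 15.1 FPKM in D7 non-IR, from 18.1 to 4.23 in D7 IR and from 134 to 9.31 FPKM at D11. Rnase1, a pancreatic ribonuclease, rose from 12.0 to 18.5 and from 42.5 to 112 FPKM in the D7 conditions and fell from 83.0 to 52.1 FPKM at D11. Its sign by day was therefore that of Ctrb1. Clps, the colipase that anchors pancreatic lipase, read 391 and 358 FPKM in D7 non-IR, rose from 397 to 532 FPKM in D7 IR, and read 281 and 354 FPKM at D11. The Clps call in D7 non-IR organoids was lost without vehicle replicate 2 or 3 or TGFB1 replicate 2 or 3, and the call at D11 without vehicle replicate 3 or any TGFB1 replicate. Zg16, a lectin of zymogen granules and goblet cells, fell from 83.1 to 15.1 and from 112 to 75.3 FPKM in the D7 conditions and read 66.1 and 88.8 FPKM at D11, a call lost without vehicle replicate 1 or 2 or TGFB1 replicate 1 or 3. Reg1, a secreted lectin of the pancreas, fell from 61.8 to 19.9 FPKM in D7 non-IR organoids and read 1689 and 1758 FPKM in D7 IR.

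**Figure D2:**
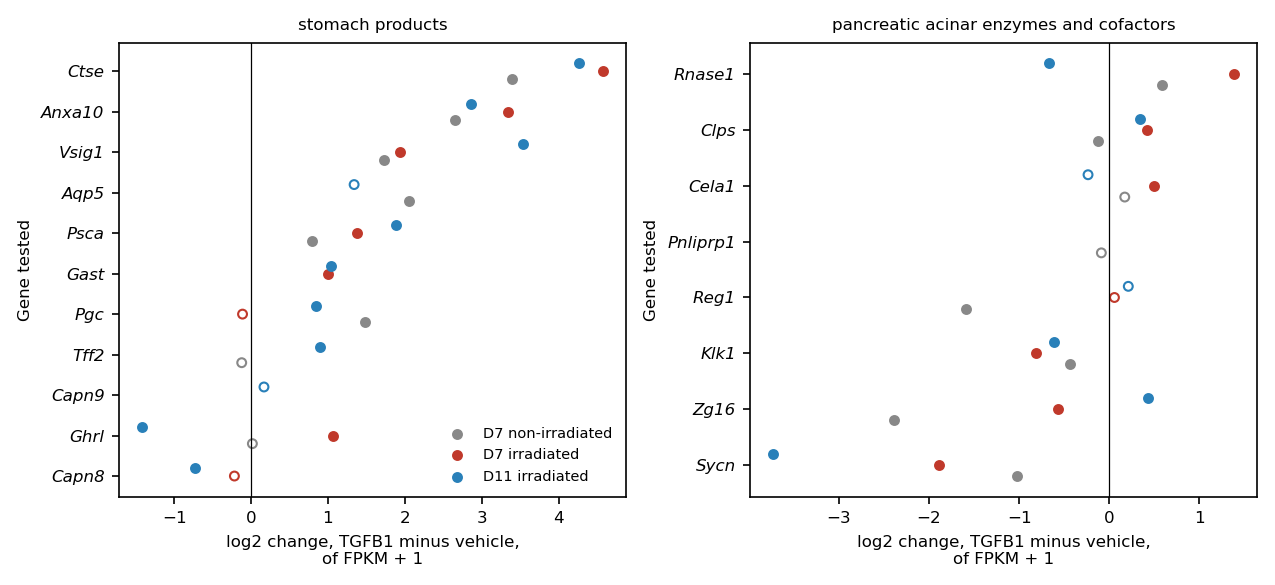
Log2 change of mean log2(FPKM + 1), TGFB1 minus vehicle (horizontal axis), for the tested genes of the stomach product list and the pancreatic acinar list in each condition. Filled points passed a limma adjusted p of 0.05 and open points did not. Ctse, Anxa10, Vsig1 and Psca lie right of 0 in all 3 conditions and Sycn left of 0 in all 3. Vsig1 in D7 IR and D11 was fitted through its TGFB1 libraries alone.

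Transcription factors of foregut, pancreas and intestine did not move as a block. Of those tested, 9 rose and 9 fell of 20 in D7 non-IR, 6 rose and 11 fell of 19 in D7 IR, and 9 rose and 9 fell of 20 at D11, with medians of -0.05, -0.20 and 0.00. Beside these counts, 33.3%, 35.8% and 32.3% of all genes rose, while 34.9%, 39.7% and 31.6% of them fell. Sox21, a factor of the Sox family, read 0.378 and 4.71, 0.358 and 5.58, and 0.240 and 8.16 FPKM in the same order of conditions. It reached the minimum of 1 FPKM through its TGFB1 libraries alone, so these are values with no test. Its place among the risen carries no weight. Isx, another factor of the list, reached that minimum at D11 through its TGFB1 libraries alone, so its place in the D11 counts carries no weight either. Foxa1, a pioneer factor of endoderm, rose from 29.2 to 76.5, from 27.1 to 77.7 and from 27.2 to 87.8 FPKM. Cdx1 and Cdx2, which specify intestine, and Hnf4a and Gata4 fell in all 3 conditions, Cdx2 from 144 to 90.5, from 119 to 92.4 and from 138 to 106 FPKM. The Cdx2 call at D11 was lost without vehicle replicate 2 or 3 or TGFB1 replicate 3, and the Gata4 call in D7 IR in a fit of all 18 libraries. Ptf1a, the factor that specifies acinar cells, was listed at 0 in every group mean.

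Secreted defence proteins, the functional kin of Dmbt1, did not follow the course of Dmbt1. In D7 IR organoids 12 of 15 tested rose and 2 fell, with a median log2 change of 1.13, where Dmbt1 was lower. The counts were 5 risen and 7 fallen of 14 in D7 non-IR and 5 risen and 5 fallen of 14 at D11, with medians of -0.10 and -0.12. Of all genes, 35.8% rose with TGFB1 and 39.7% fell in D7 IR organoids. The D7 non-IR shares were 33.3% and 34.9%, while the D11 shares were 32.3% and 31.6%. The irradiation term was positive and passed for 15 of 15 defence genes, against 25.3% of all genes, and it was negative for Dmbt1. That term was also positive and passed for 14 of 15 digestive enzymes of the intestine, so it was not particular to defence genes. Lypd8, which keeps flagellated bacteria from the epithelium, rose from 417 to 996, from 1472 to 5171 and from 486 to 1030 FPKM. Pigr, the transporter of secretory antibodies, fell from 702 to 278, from 915 to 447 and from 1103 to 336 FPKM, as Dmbt1 also was lower in all 3 conditions.

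Digestive enzymes of the intestine mostly fell, unlike Ctrb1 at D7. Of 15 tested, 1 rose and 13 fell in D7 non-IR, 5 rose and 9 fell in D7 IR, and 1 rose and 10 fell at D11. By condition, the shares of all genes that fell were 34.9%, 39.7% and 31.6%, while 33.3%, 35.8% and 32.3% rose. The aminopeptidase Anpep fell from 44.7 to 15.7, from 259 to 98.5 and from 104 to 50.3 FPKM in that order of conditions. The peptidase Dpp4 fell from 34.5 to 12.7, from 25.4 to 11.6 and from 21.4 to 5.75 FPKM.

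The single-cell time course followed the same genes in irradiated organoids over a day of TGFB1 at the lower dose. With 1 library per time there is no test, and intervals are exact Poisson 95% intervals that cover counting error only. Cym read 0.110 CPM at 0 h (3 UMIs), 3.76 at 6 h (3.12 to 4.49), 21.7 at 15 h (572 UMIs) and 102 CPM at 24 h (98.8 to 106, 3136 UMIs). Each time point lay above the one before, and the ratio of 24 h to 15 h was 4.71 (4.31 to 5.16). The ratio of 24 h to 0 h was 933, with a counting interval from 319 to 4529 because of the 3 UMIs at 0 h.

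Gkn3 and Ctrb1 took different courses. Gkn3 read 9.95, 36.7, 81.6 and 49.7 CPM at 0, 6, 15 and 24 h, with its highest value at 15 h, and the ratio of 24 h to 15 h was 0.609 (0.570 to 0.651). Ctrb1 read 79.7, 165, 539 and 931 CPM and lay higher at each later time, 11.7-fold (11.2 to 12.2) higher at 24 h than at 0 h. Pnliprp2 read 24.2, 27.0, 36.1 and 13.2 CPM, and Dmbt1 read 441, 688, 572 and 377 CPM. Both were thus higher at an intermediate time and lower at 24 h than at 0 h, with ratios of 0.544 (0.480 to 0.617) and 0.854 (0.832 to 0.876).

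The shares of cells with a UMI, after thinning every cell to 2000 UMIs, had the same order of times as the levels for Cym, Gkn3, Ctrb1 and Dmbt1, and not for Pnliprp2. For Cym they were 0 of 2931 cells at 0 h, which allows up to 0.126% of cells with a UMI (Clopper-Pearson) and sets no limit on cells that express the gene, then 0.608%, 3.39% and 9.87% at 6, 15 and 24 h. Without thinning, 3 cells had a Cym UMI at 0 h and 26.0% of cells at 24 h. For Ctrb1 the thinned shares were 7.16%, 13.6%, 27.9% and 37.2% and the unthinned share at 24 h 65.6%. For Gkn3 they were 1.88%, 5.45%, 11.9% and 7.17%. For Dmbt1 they were 30.6%, 42.1%, 38.6% and 27.6%. For Pnliprp2 they were 3.41%, 3.32%, 2.87% and 2.71%, lower at each later time, while its level was highest at 15 h. Shares depend on the depth chosen. After thinning to 1000 UMIs they were 0.887%, 2.87%, 7.23% and 4.91% for Gkn3, and 0%, 0.490%, 2.04% and 6.67% for Cym. Thinned to 1000 UMIs, the order of times was kept for Cym, Gkn3, Ctrb1 and Dmbt1 and turned round for Pnliprp2, at 1.77%, 1.82%, 1.94% and 1.98%, so no course is read from its shares.

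**Figure D3:**
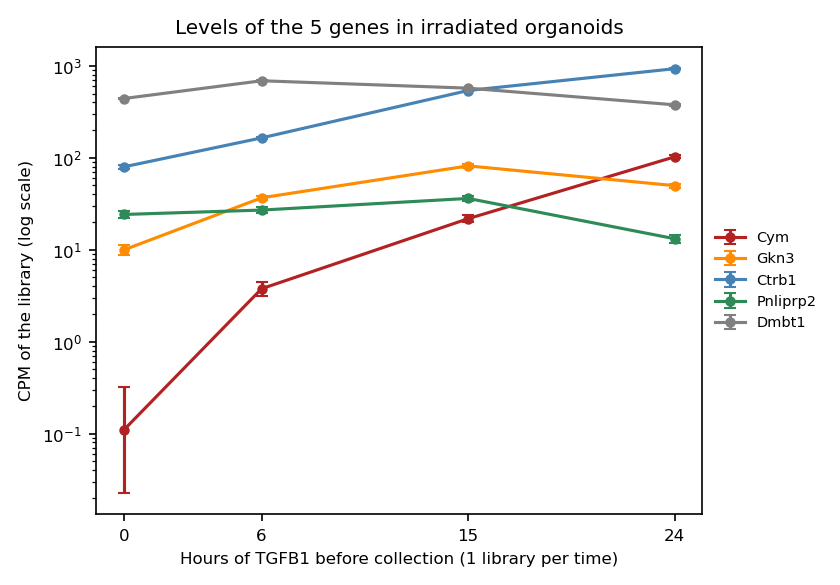
CPM (vertical axis, log scale) of the 5 genes at 0, 6, 15 and 24 h of TGFB1 (horizontal axis), 1 library per time, with exact Poisson 95% bars. Cym and Ctrb1 lie higher at each later time, Gkn3 has its highest point at 15 h, and Pnliprp2 and Dmbt1 end below their start.

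Most UMIs of Cym and Gkn3 lay in other cells than most UMIs of Ctrb1. Cells were clustered with the 5 genes left out of the genes used for clustering, and clusters were named from marker lists. At 24 h Cym reached 360 CPM (344 to 377) in 377 stem-like cells, led by Fstl1, Olfm4 and Lgr5, and 230 CPM (214 to 248) in 147 G2M-like cells, led by Cenpf and Top2a. The next clusters of at least 50 cells were goblet-like cells at 57.8 CPM, and villus tip-like cells were lowest at 12.6 CPM. After thinning, 24.7% of the stem-like cells (median 11989 UMIs) and 25.2% of the G2M-like cells (median 20738 UMIs) had a Cym UMI, against 1.09% of the villus tip-like cells (median 8058 UMIs). Together the stem-like cluster and that G2M-like cluster were 23.6% of the cells and held 81.2% of the Cym UMIs.

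Gkn3 lay in the same clusters. At 24 h it read 169 CPM (158 to 180) in the stem-like cells and 139 CPM (126 to 153) in the G2M-like cells, which together held 84.8% of its UMIs, and 2.91 CPM in the main enterocyte-like cluster. Unlike Cym, Gkn3 was there without TGFB1, at 45.4 CPM in stem-like cells and 24.6 CPM in the G2M-like cells at 0 h, with 68.8% of its UMIs in these clusters. These clusters held 33.6% of the Cym UMIs at 6 h and 56.1% at 15 h. At 6 h Cym read 4.27 CPM (1.95 to 8.11) in the stem-like and 4.44 CPM (3.04 to 6.27) in the G2M-like cells. Both intervals overlap that of the highest cluster, an enterocyte-like one at 7.95 CPM (2.17 to 20.3, from 4 UMIs), so no order of clusters is read at 6 h.

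Ctrb1 was highest in an unnamed cluster and in a cluster led by Reg3b and Reg3g, whose order and names depended on the clustering. At 24 h it read 1988 CPM (1948 to 2030) in 309 cells of an unnamed cluster led by Fcgrt and Slc34a2, and 1715 CPM (1686 to 1744) in 522 enterocyte-like cells led by Reg3b and Reg3g. These clusters were 37.5% of the cells and held 79.6% of the Ctrb1 UMIs but 9.79% of the Cym UMIs. The stem-like and G2M-like clusters read 209 and 160 CPM and held 5.46% of the Ctrb1 UMIs. At a clustering resolution of 1 in place of 0.6 the cluster led by Reg3g and Reg3b was the highest, at 2205 CPM (2161 to 2250) in 205 cells, and had no name, and the cluster led by Fcgrt read 2006 CPM (1961 to 2052) in 226 cells. The stem-like cluster was highest for Cym and Gkn3 at that setting too, at 380 and 176 CPM. At 0 h another enterocyte-like cluster, led by Leap2 and Reg1, held 82.1% of the Ctrb1 UMIs at 197 CPM. That cluster had 1055 cells at 0 h and 24 cells at 24 h, so the enterocyte-like cells of the earliest and latest libraries fell into different clusters.

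The ratio of Cym to Ctrb1 UMIs is free of depth and differed between clusters within the 24 h library. There were 173 Cym UMIs per 100 Ctrb1 UMIs in stem-like cells and 144 in the G2M-like cells, but 1.11 in enterocyte-like cells, 1.71 in the unnamed cluster led by Fcgrt and 2.73 in villus tip-like cells. In single cells thinned to 2000 UMIs at 24 h, Gkn3 was found in 16.0% (11.4 to 21.5) of 219 cells with Cym and in 6.20% (5.19 to 7.35) of 1999 cells without it. Ctrb1 was found in 28.3% (22.4 to 34.8) of the cells with Cym and in 38.1% (36.0 to 40.3) of those without. These are binomial intervals over cells of 1 library and no comparison of conditions.

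Pnliprp2 and Dmbt1 each had a place of their own. Pnliprp2 was highest in villus tip-like cells, led by Ada, at 398, 461, 781 and 211 CPM at 0, 6, 15 and 24 h in 111, 148, 103 and 92 cells. These cells held 63.5%, 62.2%, 77.4% and 54.1% of its UMIs. Dmbt1 was highest at 0 h in a smaller G2M-like cluster, of whose cells over all times 11.4% were marked as doublets, at 1237 CPM, and in the unnamed cluster led by Fcgrt at 859 CPM. At 24 h it read 855 and 1154 CPM there. These clusters held 45.3%, 58.6%, 63.7% and 52.3% of the Dmbt1 UMIs at 0, 6, 15 and 24 h.

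**Figure D4:**
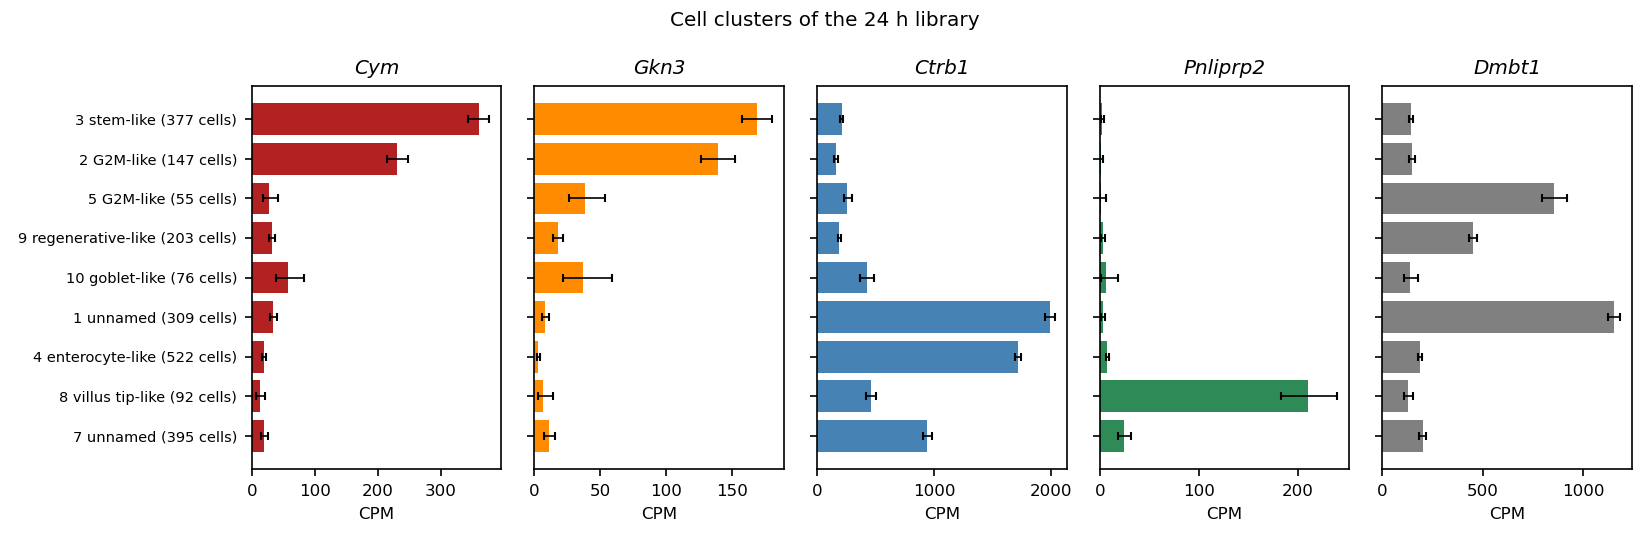
CPM (bars, from 0) of each gene in the clusters with at least 50 cells of the 24 h organoid library, with the clusters named as in the text. The tallest bars are the stem-like and G2M-like clusters for Cym and Gkn3, the unnamed and enterocyte-like clusters for Ctrb1, and the villus tip-like cluster for Pnliprp2.

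In Ki67-RFP+ crypt cells no rise of any of the 5 genes was detected 56 h after 12 Gy. Cym read 0.699 CPM (0.414 to 1.10, 18 UMIs) in the non-irradiated library and 0.510 (0.205 to 1.05, 7 UMIs) and 0.729 CPM (0.333 to 1.38, 9 UMIs) in the irradiated libraries. The ratios to the control were 0.730 (0.258 to 1.83) and 1.04 (0.413 to 2.45), so a rise in Cym beyond 2.45-fold lies outside both counting intervals. Ctrb1 was at 3, 2 and 3 UMIs, that is 0.116, 0.146 and 0.243 CPM, and a difference was not detectable at this depth, with ratios of 1.25 (0.104 to 10.9) and 2.09 (0.280 to 15.6). With 1 control library there is no test between the conditions.

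Gkn3 and Dmbt1 were present in the control crypts and lower in the irradiated ones. Gkn3 read 69.0 CPM (65.8 to 72.3) in the control library and 19.1 (16.8 to 21.5) and 11.0 CPM (9.24 to 13.03) in the irradiated libraries, 3.62-fold and 6.26-fold lower. Dmbt1 read 2379 CPM (2360 to 2398) in the control library and 474 (463 to 486) and 341 CPM (331 to 352) in the irradiated libraries, 5.02-fold and 6.97-fold lower. After thinning, a Dmbt1 UMI was found in 88.2% of control cells and in 41.2% and 29.8% of irradiated cells, and without thinning in 97.9%, 77.7% and 65.1%. Pnliprp2 read 3.03 CPM (78 UMIs), 0.364 (5 UMIs) and 1.78 CPM (22 UMIs).

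**Figure D5:**
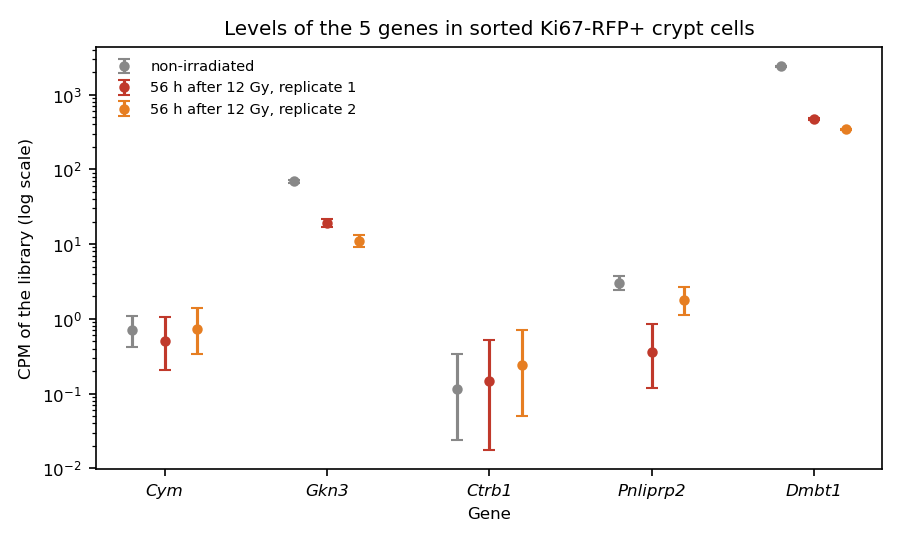
CPM (vertical axis, log scale) of the 5 genes in the control library and the 2 irradiated libraries of Ki67-RFP+ crypt cells (horizontal axis), with exact Poisson 95% bars. Gkn3 and Dmbt1 lie lower in both irradiated libraries, while the bars of Cym and of Ctrb1 overlap across the 3 libraries.

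Clusters of the crypt cells split by library, with 768, 609 and 347 control cells in stem-like, unnamed and enterocyte-like clusters that held 0, 0 and 2 irradiated cells, so levels within cell types were not compared there. In the control library Gkn3 read 142 CPM in the stem-like cells, which held 81.8% of its UMIs. At a resolution of 1 Gkn3 read 222 CPM in 222 stem-like control cells and 113 CPM in 499 control cells of an unnamed cluster, both led by Olfm4. Irradiated cells fell into a regenerative-like cluster, where Gkn3 read 10.7 and 5.07 CPM in the irradiated replicates, and into unnamed ones. Goblet-like cells were found in all 3 libraries, at 68, 38 and 20 cells, and there Gkn3 read 80.1 (61.4 to 103), 75.8 (55.9 to 101) and 66.3 CPM (42.5 to 98.7). Within goblet-like cells the counting intervals of Gkn3 thus overlapped, while those of the whole libraries did not. In the control library 39.7% of the Pnliprp2 UMIs lay in 25 Paneth-like cells at 199 CPM (135 to 282), and the irradiated libraries had 3 such cells each. The 9 Cym UMIs of irradiated replicate 2 included 4 in 32 enterocyte-like cells, at 14.6 CPM (3.99 to 37.5).

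Of the other stomach products, more were higher than lower in each irradiated crypt library, against 1 control library. Of 13 stomach products with more than 3 UMIs in either library, 7 were at least 2-fold higher and 3 lower in irradiated replicate 1, where 17.7% of 21376 gene rows were higher and 8.19% lower by that rule. In irradiated replicate 2 the counts were 9 and 2, against 19.7% and 6.29% of 21435 gene rows. Anxa10, Gkn1 and Gkn2 in replicate 1 had 0 UMIs in the control and were admitted through the irradiated library alone. The same held for Anxa10, Gkn1 and Pga5 in replicate 2, Pga5 with 4 UMIs. Such genes could count as higher but not as lower. Among the lower ones, Capn9, and in replicate 1 Atp4a, were admitted through the control alone. Ghrl was among the lower ones in replicate 1 and among the higher ones in replicate 2. Anxa10 had 0 UMIs in the control library and 14.0 and 13.4 CPM in the irradiated ones, at least 120-fold and 115-fold higher against a floor of 3 counts in the control. Ctse read 0.272, 2.04 and 2.59 CPM and Vsig1 0.155, 1.60 and 1.62 CPM in the control and the irradiated libraries. Gkn1, a gastrokine chosen after its values were seen, had 0 UMIs in the control and 3.35 and 3.00 CPM in the irradiated libraries, while Gkn3 was lower there.

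In organoids 7 of 13 stomach products were at least 2-fold higher and 2 lower at 24 h than at 0 h, against 13.9% and 5.12% of 21009 gene rows. Among the higher ones, Capn9, Cblif and Gast had 2, 2 and 1 UMIs at 0 h and 8, 15 and 12 at 24 h. They were admitted through the 24 h library alone, so they could count as higher but not as lower. Anxa10 read 22.2 and 156 CPM, Ctse 0.439 and 10.8 CPM and Vsig1 0.146 and 2.51 CPM. Gkn1 had 0 and 2 UMIs. With 1 library per time or 1 control library these counts have no test.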

How the data were processed

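Bulk RNA values were deposited by the authors as FPKM in 3 tables, 1 per condition, of 23951 genes and 6 libraries. For single cells the authors deposited matrices of expected counts (UMIs divided between genes), in which 8.64 to 22.0% of the UMIs of a library are fractional entries, and none of the UMIs of the 5 genes. The submitters' processing notes name TopHat2 2.1.0, Cuffnorm 2.2.1, Cuffdiff 2.2.1, STARsolo, STAR 2.7.10a and Salmon 1.4, with mm9, GRCm39 and mm39 as builds, and give no role for each. PIPseq chemistry was used for the cells, per the labels.

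The 5 genes, the gene lists and the tests were chosen with earlier results of these data known. Tests used limma 3.58.1 (trend and robust options, R 4.3.3) on the log2 of FPKM plus 1, per table for TGFB1 and over 12 libraries for the interactions, after dropping genes whose mean in those libraries was under 1 FPKM. Calls have a Benjamini-Hochberg adjusted p under 0.05. Scaling shared by all libraries of a table drops out of the interactions for genes well above 1 FPKM in both groups, and stays in part for genes near 0 with vehicle (Cym, and at D7 non-IR Gkn3 and Ctrb1). The limma fits were tested on simulated data. Genes named beside the 5 are the 3 closest in correlation to each, and of each list the 4 most expressed and any gene called at least 2-fold in 1 direction in all 3 conditions; other genes were chosen after their values were seen.

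Cells with at least 500 UMIs, 250 genes and at most 20% mitochondrial UMIs (37 genes) were kept. Levels are CPM over the UMIs of all kept cells. Shares were taken after thinning to 2000 UMIs, which left out 6 cells. Organoid and crypt cells were clustered apart with scanpy 1.11.5 and leidenalg 0.10.2 (2000 variable genes, 30 principal components, 15 neighbours, resolution 0.6). A cluster was named where the median fold of a marker list was at least 2, at least 3 of its markers were detected and 1 was among the 10 leading genes, the last set after seeing the data. PCR and droplet losses are not covered by counting intervals. Motif counts used python 3.11.15. The alternatives were a pseudocount of 0.1, no filter, other scalings, all 18 libraries in one fit, a replicate block, each replicate left out, other cell filters, whole-number entries and resolution 1. Same-numbered vehicle and TGFB1 libraries were checked for pairing, which did not hold throughout, and the main fits were unpaired. The chromatin files were not used here.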

Additional observations from a re-analysis of the deposited data

Results flagged for a closer look

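The responses below differed between conditions by the interaction test (limma, 12 libraries, adjusted p under 0.05). They rest on the libraries that chose the genes, so passing is a description and no independent support, and no explanation was weighed. With irradiation at day 7, the TGFB1 change on the log2(FPKM + 1) scale was larger by 0.56 for Pnliprp2, whose change was negative without irradiation and near 0 with it. The terms of Gkn3, Ctrb1 and Dmbt1 were -3.12, -1.81 and -0.93. The term of Cym was 1.92 and is no more than a value, since Cym was fitted through its TGFB1 libraries alone. With a pseudocount of 0.1 the term was 0.79. From day 7 to day 11 in irradiated organoids the terms were -1.05 for Gkn3, -6.09 for Ctrb1, -2.55 for Pnliprp2 and 0.59 for Dmbt1. The Ctrb1 term is the widest of the 9 and includes a turn of sign, from 37.1-fold higher to 0.490-fold with TGFB1. The interaction passed for 53.1% of all genes by irradiation and for 64.5% by day.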

How the results depend on the processing

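The alternative values of the interaction terms of Gkn3, Ctrb1, Pnliprp2 and Dmbt1 all kept their direction and their side of the threshold, over 18 alternatives per term. The Cym terms have no valid test and are given as values. They were 0.79 to 2.13 for irradiation, lowest at a pseudocount of 0.1, and 0.30 to 1.00 for day, highest under quantile normalization. None of the 150 alternative log2 changes of the 5 genes changed sign. With a 2-fold minimum the TGFB1 calls were 956, 1484 and 1574 (non-irradiated, irradiated D7 and D11), with 500 for the irradiation term and 1880 for the day term, against 7732, 8495, 7335, 6061 and 7387. With whole-number entries alone, which changes the library totals and none of the UMIs of the 5 genes, the Dmbt1 ratios were 0.882 at 24 h against 0 h and 0.219 and 0.155 in the irradiated crypt libraries. Thinning to 1000 in place of 2000 UMIs moved 18 of 20 shares of cells beyond their counting intervals, all to lower values. Resolution 1 moved the highest cluster level beyond its interval in 9 of 20 cases. Among the list genes Ghrl in D7 non-IR was -0.0759 under quantile normalization and -0.0142 to 0.0486 with 1 replicate left out, Reg1 in D7 IR was -0.23 under quantile normalization, and Tff3 in D7 IR was -0.0652 to 0.00411 with 1 replicate left out. Same-numbered libraries had correlations of -0.0856 to 0.213. For D7 IR replicate 2 the value was 0.213, against at most -0.0879 with another number. For D11 replicate 2 it was -0.0252, against up to 0.204. Pairing by number thus did not hold throughout. With a replicate block the calls were 7701, 8417, 7351, 5964 and 7396, and the interaction calls of Gkn3, Ctrb1, Pnliprp2 and Dmbt1 did not change. Bulk depth is unknown, and the 3 UMIs of Cym at 0 h and of Ctrb1 in crypts limit their ratios.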

Other observations

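Isx, an intestinal transcription factor also chosen after its values were seen, read 0.0856 FPKM with vehicle and 77.2 FPKM with TGFB1 at D11, and 0.161 and 0.930 FPKM in D7 IR organoids. At D11 it reached the minimum of 1 FPKM through its TGFB1 libraries alone, so it has no valid test there. It read at most 0.0760 CPM in the single-cell organoid libraries and 50.5 to 64.7 CPM in the crypt libraries.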
